A study of Fasciola hepatica with 9 samples.

Results

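Eggs of the liver fluke *Fasciola hepatica* at day 10 (T10) were compared with eggs at day 0 (T0). The comparison takes 6 of the 9 libraries of the series, 3 at T0 and 3 at T10, chosen by the age in the sample labels. The other 3 libraries, of eggs at day 5 (T5), share the estimate of the spread and are given beside a few results. Adult worms of natural infections were taken from bovine livers, and their freshly laid eggs were split evenly into groups and left untreated. T0 eggs were washed and frozen at once. T10 eggs spent 10 days in the dark, in sterilised water with penicillin and streptomycin at the body temperature of the mammalian host, and were then frozen. In a separate hatching experiment the study kept eggs at this temperature for as long and then moved them to a cooler one. They hatched later and less often than eggs kept cool throughout, and more of them died. The share of dead or delayed eggs in the portions sequenced is not given. No sorting of eggs by stage or viability is described, and a library holds the RNA of a whole portion of eggs, so fewer cells of a type and less RNA per cell cannot be told apart. All libraries stem from one harvest, so p-values describe how far these portions vary, which may be technical variation.

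A newly laid fluke egg holds a fertilised ovum or a very early embryo packed among vitelline cells, which carry stores of glycogen, lipid and protein. The vitelline cells also make the precursors of the eggshell, which is hardened by tanning with the help of tyrosinase. In water and at a suitable temperature the embryo divides, differentiates and becomes a ciliated swimming larva, the miracidium. In animal embryos in general, transcripts stored by the mother are degraded while transcription from the embryo's own genome takes over. The comparison of T10 with T0 asks for the net change between both ends of the incubation.

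The library kit, QuantSeq 3′ FWD, yields 1 tag near the 3′ end of each polyadenylated transcript. In principle levels of different transcripts can then be compared without dividing by length. In each library only a minority of the reads mapped in the study, so levels may also depend on how a model is annotated. The tables held 9708 protein-coding gene models, and 6319 of them passed the filter on low counts and were tested. Expected counts on coding models ran from 8088685 to 8511584 at T0 and from 8018570 to 9543807 at T10. At this depth 3 counts, taken as the floor for a transcript with no count, were worth 0.314 to 0.374 CPM (counts scaled to a fixed library total) before further scaling. Below, CPM also carry the TMM factor of the library (a trimmed mean of log ratios between libraries), which was 0.755 to 0.817 at T0 and 1.036 to 1.355 at T10. Log2FC is the log2 fold change of T10 over T0, and positive values mean a higher level at T10. Calls were made by the quasi-likelihood test of edgeR at an adjusted p below 0.05. Product names were at hand for 24.8% of the coding models and come from the closest database homologue, so that a model is identified here by its name and by the number of its assembly scaffold.

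T10 replicate 1 stood apart from the other T10 libraries. Its counts differed from theirs by a chi-square of 92.0 and 96.6 per gene, against 25.8 between replicates 2 and 3, and its correlations with them on the log2 scale were 0.947 and 0.946 against 0.967. The T0 libraries lay closer together, with a chi-square of 6.14 to 12.8 per gene. The choice of scaling also matters, since the abundant transcripts fell. The median log2FC of all tested transcripts was 0.16 with TMM factors, 0.06 with RLE factors, 0.12 with upper-quartile factors and 0.78 when counts were divided by library size alone. Both points touch every count below. Values without that library or by library size are given for many results, though not for every call that they change.

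The marker transcripts of the cell types that a portion of eggs could hold were examined first. All 3 vitelline models (vitelline protein B1 and both tyrosinases) had counts, and they summed to 32390, 39070 and 35661 CPM at T0 and to 47206, 14936 and 20749 CPM at T10. For the gut of adult worms 9 models were picked by name alone (secreted cathepsins L, cathepsins B and saposins), so they need not be particular to it. Of these, 8 had counts at T0 and 6 at T10, with sums of 1769 to 2039 CPM falling to 786 to 993 CPM. Of the 6 tested, 5 were lower and 1, cathepsin B (scaffold 1137), was higher. Over all tested transcripts 23.1% were lower and 30.5% higher. A second cathepsin B model had no count at either time, and cathepsin B4 and a saposin-like fragment had none at T10. The 15 tektin, radial spoke and axonemal dynein models summed to only 36.8 to 49.8 CPM at T0 and 21.3 to 37.9 CPM at T10. The part of the adult gut and of the vitelline cells in the changes below was not tested.

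The most abundant transcripts lost their dominance over 10 days. At T0 the single most abundant transcript held 8.28, 8.16 and 8.92% of all coding counts in the 3 libraries, and at T10 it held 5.37, 4.3 and 3.55%. The leading 50 of each library held 46.1, 46.4 and 47.6% at T0 and 36.1, 29.4 and 27.6% at T10. The T0 libraries lay within a narrow band and did not overlap with any T10 library, while the T10 libraries were spread. Counted the other way, 69, 68 and 61 transcripts were enough for 50% of the counts at T0, and 148, 242 and 275 were needed at T10, a 3.36-fold higher mean. To reach 90% of the counts took 1530, 1509 and 1420 transcripts at T0 and 2074, 2303 and 2408 at T10, a 1.52-fold higher mean.

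**Figure D1:**
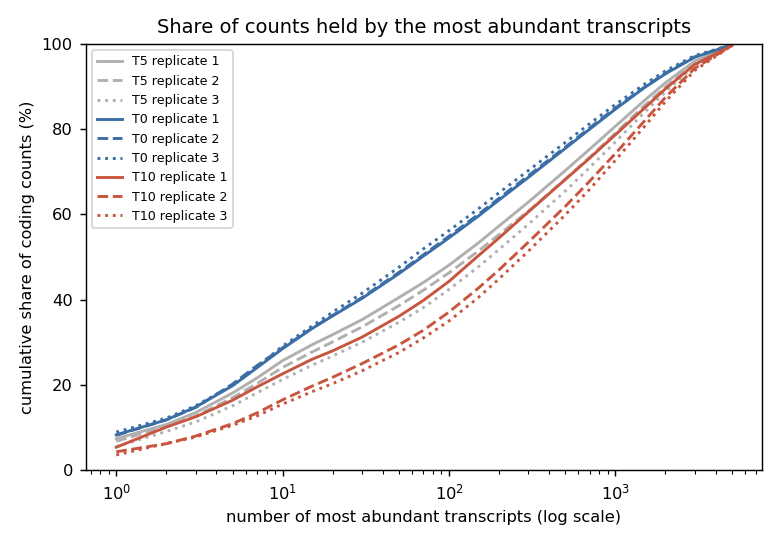
Cumulative share of coding counts (y axis, %) held by the most abundant transcripts of each library, ranked within that library (x axis, number of transcripts, log scale), 1 line for each of the 9 libraries. The T0 lines run together and above all others, with 46.1 to 47.6% at 50 transcripts, while T10 replicate 1 runs near the T5 lines with 36.1% and T10 replicates 2 and 3 run lowest with 29.4 and 27.6%.

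The effective number of transcripts, the exponential of the Shannon entropy of the shares, was 549, 540 and 505 at T0 and 891, 1280 and 1403 at T10, a 2.24-fold higher mean. T10 replicate 1 lay within the range of the T5 libraries, which had 738, 825 and 992. For every one of these measures all T0 libraries were on one side of all T10 libraries, with an exact permutation p of 0.10 (two-sided), which is the smallest that 3 libraries against 3 can give. The direction of each measure was also the same without T10 replicate 1, where the leading 50 changed by -18.2 percentage points in place of -15.7. In TPM, which divide by length, the changes were smaller for several measures: the share of the leading transcript changed by -2.15 points in place of -4.05 and its groups overlapped (exact permutation p = 0.40), the number of transcripts for 50% changed by 62.7 in place of 156, that for 90% by 457 in place of 775, the share of the leading 500 by -7.37 points in place of -12.8, and the effective number by 339 in place of 660.

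The leading transcripts themselves stayed mostly the same while their levels fell. The 50 with the highest mean at T0 summed to 565000, 574206 and 630816 CPM at T0 and to 328595, 202852 and 177761 CPM at T10, a ratio of 0.401. This ratio includes the TMM factors. As unscaled shares of counts the same 50 held 46.1, 46.4 and 47.6% at T0 and 34, 25.8 and 24.1% at T10, a smaller fall. These 50 are chosen by the values described, so neither the sum nor the count of calls among them is a test. Of the same 50, 34 (68%) were again among the leading 50 at T10, and none ranked below 133 there. In the test over all transcripts 49 of the 50 were lower and 1, vitelline protein B1, was not called, with a median log2FC of -1.42 and a range from -3.54 to -0.31. Of all tested transcripts 23.1% were lower, and of those with a mean of 1000 CPM or more 70.8%. By library size alone 46 of the 50 were still lower. Of the 50 leading transcripts of T10, 10 were higher than at T0, 33 were lower and 7 were not called, so most of the transcripts that led at T10 were also lower than at T0.

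**Figure D2:**
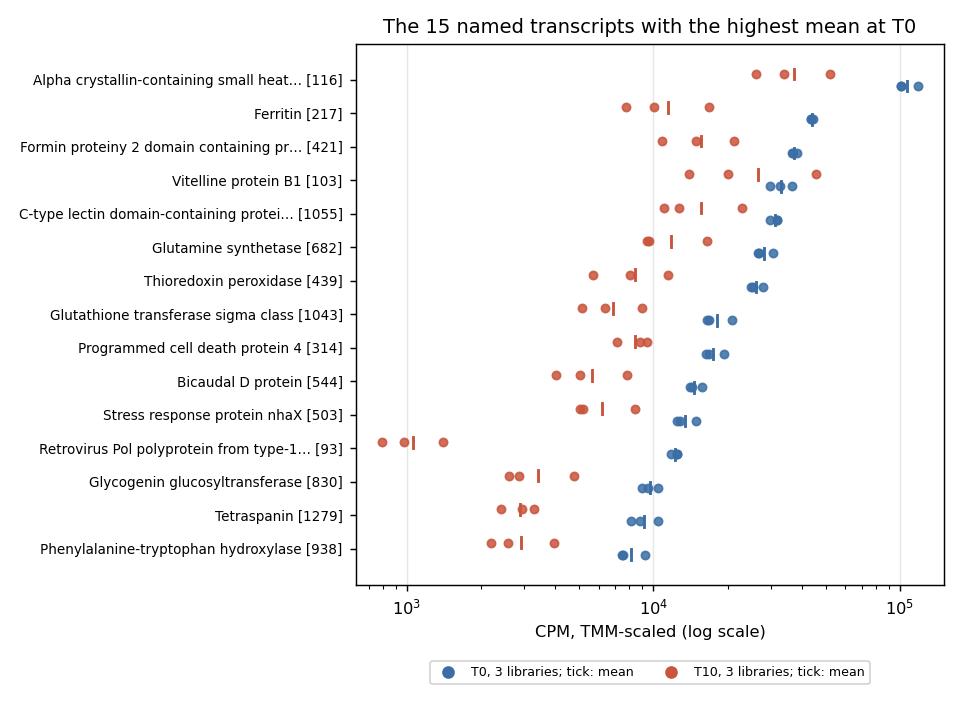
The 15 named transcripts with the highest mean at T0, each with its CPM in 3 T0 and 3 T10 libraries (x axis, TMM-scaled, log scale), a tick at each mean and the scaffold number in brackets. All but vitelline protein B1 are lower in every T10 library than in every T0 library, and the highest T10 value is that of replicate 1 in all 15.

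Below the small heat shock protein and ferritin at the head of the list, further leading transcripts fell by like amounts. The transcript named formin (scaffold 421), a family that nucleates actin filaments, held 36748, 36650 and 38162 CPM at T0 and 21255, 14926 and 10847 CPM at T10 (log2FC -1.25, SE 0.26, adjusted p = 9.5e-04, edgeR). A C-type lectin domain protein (scaffold 1055), of a family that binds sugars, held 31723, 31690 and 29747 CPM and then 22854, 12732 and 11052 CPM (mean 31053 to 15546 CPM, adjusted p = 0.0055, edgeR). Their groups did not overlap, and in both the highest T10 value was that of replicate 1. Programmed cell death protein 4, which in mammals holds back translation initiation, fell from 16850, 16309 and 19428 CPM to 9405, 8865 and 7105 CPM (log2FC -1.05, SE 0.21, adjusted p = 5.7e-04, edgeR). Its rank nevertheless moved from 10 to 8. Bicaudal D, which in *Drosophila* links messenger RNA and other cargo to the dynein motor, fell from 15703, 14035 and 14293 CPM to 7853, 5024 and 4019 CPM (log2FC -1.38, SE 0.25, adjusted p = 2.5e-04, edgeR). Tetraspanin (scaffold 1279), a membrane organiser, fell from 8789, 8139 and 10471 CPM to 3284, 2932 and 2413 CPM (log2FC -1.67, SE 0.21, adjusted p = 1.2e-05, edgeR).

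One leading transcript fell far more than the others. Retrovirus Pol polyprotein of a type-1 retrotransposable element (scaffold 93) encodes the reverse transcriptase of a mobile element. It held 11801, 12513 and 12452 CPM at T0, rank 13 of all transcripts, and 1399, 975 and 795 CPM at T10, rank 105. That is an 11.6-fold lower mean (log2FC -3.54, SE 0.27, adjusted p = 9.9e-08, edgeR), and every T10 library was far below every T0 library. It was the steepest fall among the 50 leading transcripts of T0. At T0 it made up most of the share of the list of retroelements, 0.971% of counts on average, and at T10 0.126%. The share of the list went from 1.12, 1.16 and 1.09% of counts to 0.27, 0.292 and 0.264%, although 6 of the 17 tested members were higher and 5 lower, and with RLE factors the count was 5 and 5. A reverse transcriptase domain protein (scaffold 45) moved the other way, from 13.5, 9.17 and 13.9 CPM to 43.3, 47.2 and 53.9 CPM (log2FC 1.98, SE 0.27, adjusted p = 2.7e-05, edgeR). Members of such repeated families can share reads, so that single models are uncertain.

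Vitelline protein B1, the eggshell precursor, was the exception among the leading transcripts. It held 29722, 36533 and 32766 CPM at T0 and 45750, 14010 and 19995 CPM at T10, and it moved from rank 4 to rank 2. T10 replicate 1 lay above all T0 libraries and the other T10 libraries below them, so the groups overlapped (log2FC -0.31, SE 0.33, adjusted p = 0.45, edgeR). Without T10 replicate 1 its log2FC was -0.96 (adjusted p = 1.8e-04, edgeR), and by library size it was 0.23. Tyrosinase (scaffold 103), on the same scaffold, fell from 2645, 2505 and 2871 CPM to 1390, 911 and 732 CPM (log2FC -1.40, SE 0.22, adjusted p = 9.4e-05, edgeR). The second tyrosinase (scaffold 689) had 23.1, 32.6 and 22.8 CPM and then 66.2, 14.7 and 22.4 CPM, again with T10 replicate 1 highest (log2FC 0.39, adjusted p = 0.42, edgeR), and was called higher by library size only (log2FC 0.92, adjusted p = 0.034). Dec-1 repeat protein, named after an eggshell protein of *Drosophila*, rose from 6.33, 5.09 and 3.6 CPM to 9.61, 11.7 and 14 CPM (log2FC 1.23, SE 0.39, adjusted p = 0.016, edgeR), a call that was lost without T0 replicate 3 (adjusted p = 0.074).

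Across the whole range, 3389 of the 6319 tested transcripts differed between T10 and T0, which is 53.6%. Of these 1928 (30.5% of those tested) were higher at T10 and 1461 (23.1%) were lower. When a fold change of over 1 log2 unit was also required, with the median TPM of each time point above 0, 923 (14.6%) were higher and 779 (12.3%) lower. The split depends on the scaling: by library size alone 3363 were higher and 713 lower, and with RLE factors 1658 were higher and 1610 lower. No transcript called with TMM factors was called in the opposite direction by these other fits. Of those called lower with TMM factors, however, 221 had a positive log2FC by library size. In all 5 fits (TMM, RLE, upper-quartile or library-size factors in edgeR, and DESeq2, also with RLE factors), 1623 were higher and 711 lower. Without T10 replicate 1 the counts were 2003 higher and 1612 lower, of which 1802 and 1400 were those called with it.

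The direction of change went with the level of the transcript. Of 1265 transcripts with a mean of 10 to 30 CPM, 37.8% were higher and 15.5% lower at T10, with a median log2FC of 0.39. Of 366 transcripts with 300 to 1000 CPM, 24.3% were higher and 53.8% lower, and of 137 with 1000 CPM or more, 13.1% were higher and 70.8% lower, with a median of -1.11. The sign of the shift in that highest range does not hang on TMM factors, since its median was -0.52 by library size, against 1.01 in the range of 10 to 30 CPM. In the range of 300 to 1000 CPM the sign did turn, with a median of -0.48 with TMM factors and 0.13 by library size. The transcripts of 1000 CPM or more held 58.3% of counts at T0 and 42.2% at T10 on average, and those of 30 to 100 CPM held 8.18% and 14%. Level and fold change are from the same libraries, so this is a description.

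**Figure D3:**
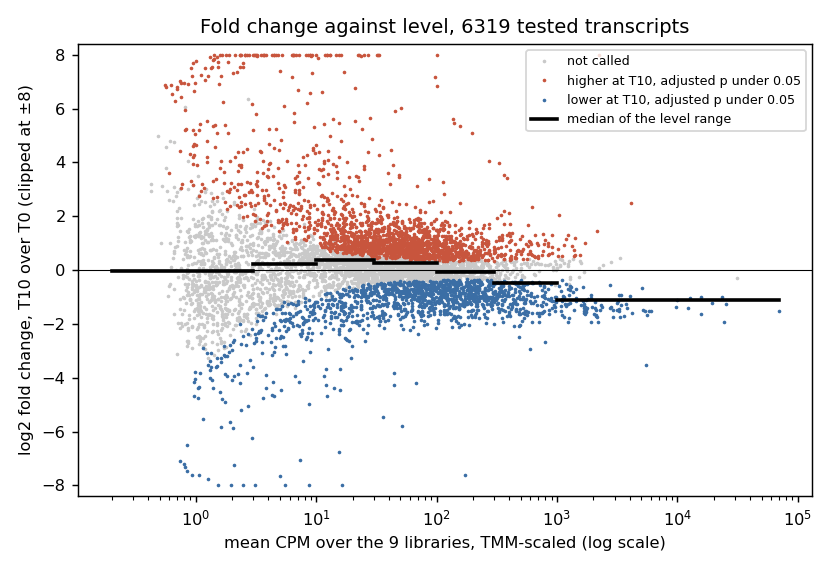
Log2 fold change of T10 over T0 (y axis, drawn at 8 or -8 where beyond) against mean CPM over the 9 libraries (x axis, TMM-scaled, log scale) for 6319 tested transcripts, 1 point each, in red where called higher, in blue where called lower and in grey otherwise. The black segments are medians of level ranges, which run from 0.39 at 10 to 30 CPM down to -1.11 at 1000 CPM and above.

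Against this loss at the top, a few transcripts climbed into the leading group. High mobility group protein DSP1 (scaffold 1708), a chromatin protein that bends DNA, held 1126, 1177 and 1591 CPM at T0 and 6583, 7691 and 7438 CPM at T10, with rank 119 becoming rank 10 (log2FC 2.48, SE 0.23, adjusted p = 8.7e-07, edgeR). The groups were far apart, and T10 replicate 1 was only a little below the others. Acidic leucine-rich nuclear phosphoprotein 32 (scaffold 958), a family of histone-binding proteins, went from 1028, 1018 and 1111 CPM to 2385, 3390 and 2925 CPM, rank 158 to 21 (log2FC 1.46, SE 0.19, adjusted p = 1.5e-05, edgeR). Nucleosome assembly protein, a histone chaperone, went from 814, 848 and 899 CPM to 1759, 2055 and 2011 CPM, rank 196 to 37 (log2FC 1.19, SE 0.16, adjusted p = 2.5e-05, edgeR). WD-repeat protein 1 (rank 176 to 45) and 40S ribosomal protein S8 (rank 220 to 49) also climbed into the leading 50.

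The steepest climb was that of a model without a product name, maker-scaffold10x_441_pilon-snap-gene-0.29-mRNA-1. It had 0.442, 0.291 and 0.819 CPM at T0 and 3945, 3865 and 3766 CPM at T10, which moved it from rank 6415 to rank 16. In counts this was 10 over the T0 libraries together and 127101 over the T10 libraries (log2FC 12.86, SE 0.32). The 3 T10 values lay close together, replicate 1 included, and the T5 libraries were already at 3180, 2497 and 2635 CPM. A second such model, maker-scaffold10x_201_pilon-snap-gene-0.3-mRNA-1, had no count at T0. At T10 it reached 173, 212 and 149 CPM, an increase of at least 391-fold. Of the models that passed the filter, 102 were without counts in all T0 libraries, and only 8 of these have a name. In the reverse direction 16 were without counts in all T10 libraries. Such models can pass the filter only through the libraries where they are present, so their direction is fixed by it.

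Among the named transcripts several that were absent or barely present at T0 appeared by T10. They too could pass the filter only through libraries where they were higher, so no p-value is given for them. A short-chain dehydrogenase/reductase (scaffold 284), of a large family of oxidoreductases, had no count at T0. Its T10 libraries held 76.4, 38.3 and 70.2 CPM, which is at least 135-fold above the floor. A C2H2 zinc finger protein (scaffold 1410), of a family of mostly DNA-binding proteins, went from no count to 14, 15.5 and 18.6 CPM, at least 35.1-fold higher. Its T5 values of 4.94, 0.845 and 4.24 CPM lay in between. Noggin, which outside the cell binds and blocks bone morphogenetic proteins, went from 0, 0 and 0.655 CPM to 42.6, 64.8 and 60.9 CPM (log2FC 8.02, SE 0.51). A facilitated glucose transporter of solute carrier family 2 went from 0, 2.18 and 0.491 CPM to 9.11, 24.8 and 19.7 CPM (log2FC 4.29, SE 0.73). Gelsolin repeat protein, of a family that severs and caps actin filaments, went from 1.03, 1.46 and 0.327 CPM to 16.1, 17.1 and 5.42 CPM (log2FC 3.73, SE 0.55).

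**Figure D4:**
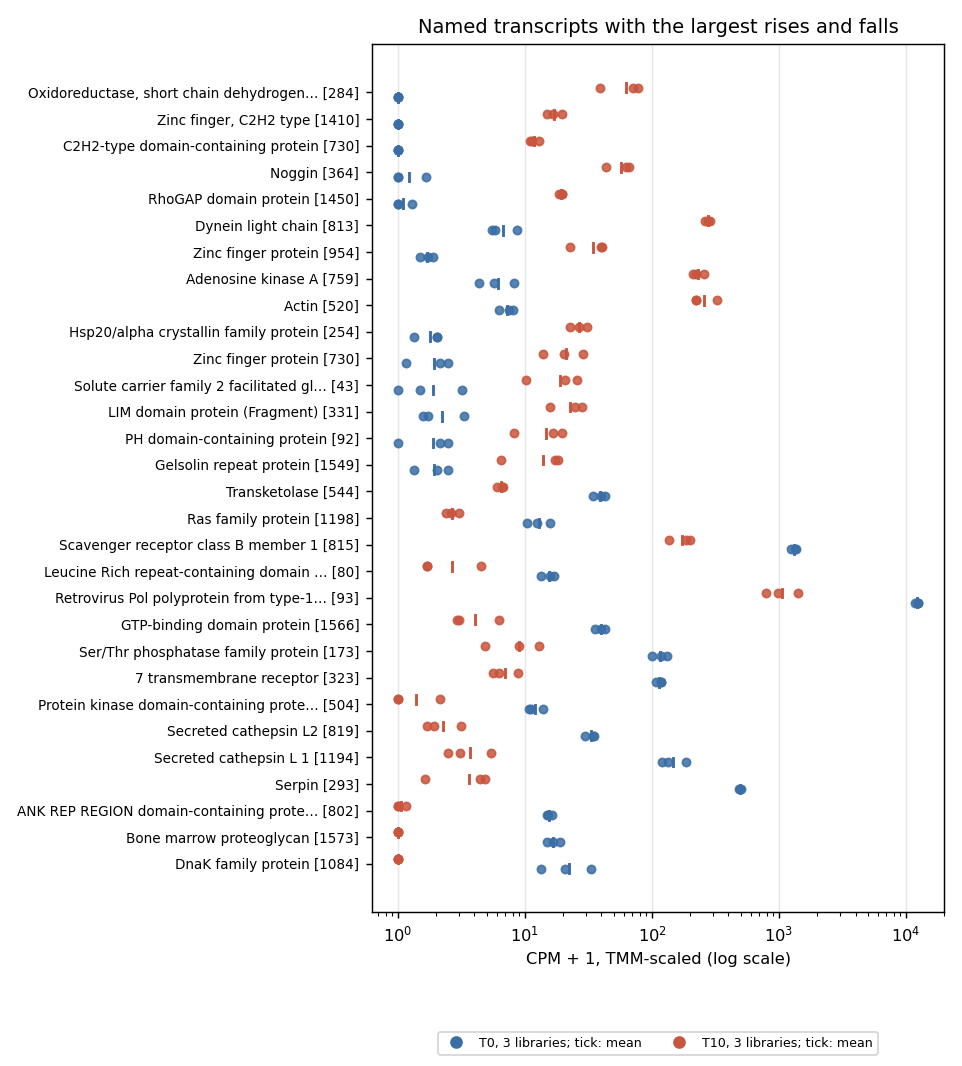
The 15 largest rises (upper rows) and 15 largest falls (lower rows) among called named transcripts that reached a mean of 10 CPM and had no overlap, with CPM + 1 in each T0 and T10 library (x axis, TMM-scaled, log scale), a tick at each mean and the scaffold number in brackets. Most rises start from under 10 CPM, while the falls include the retroelement of scaffold 93, from 11801 to 12513 CPM at T0, and scavenger receptor class B member 1, from 1239 to 1350 CPM.

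Some of the largest falls lay below the leading group. Scavenger receptor class B member 1, which in mammals takes up lipid from lipoproteins, held 1350, 1239 and 1325 CPM at T0 and 198, 183 and 136 CPM at T10 (log2FC -2.92, SE 0.19, adjusted p = 1.2e-08, edgeR). All T10 libraries, replicate 1 included, were far below T0. A serine/threonine phosphatase family protein (scaffold 173) fell from 98.2, 130 and 116 CPM to 7.99, 3.82 and 12 CPM (log2FC -3.84, SE 0.32, adjusted p = 3.4e-07, edgeR). Transketolase, an enzyme of the pentose phosphate pathway, fell from 41.9, 33.6 and 38.8 CPM to 5.06, 5.68 and 5.57 CPM (log2FC -2.81, SE 0.27, adjusted p = 1.4e-06, edgeR).

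The 28 lists drawn from product names were read against the background of 30.5% higher, 23.1% lower and a median log2FC of 0.16. Of 70 tested cytosolic ribosomal proteins, 42 were higher and 2 lower, with a median log2FC of 0.59, and their share of counts went from 3.23, 3.27 and 3.03% at T0 to 7.37, 6.58 and 6.39% at T10. Here T10 replicate 1 was the highest and not the nearest to T0. Ribosomal protein L35 showed this too, with 168, 186 and 175 CPM at T0 and 860, 393 and 474 CPM at T10 (log2FC 1.71, SE 0.23, adjusted p = 2.7e-05, edgeR). Ribosomal protein S4 went from 467, 470 and 445 CPM to 1570, 942 and 967 CPM (log2FC 1.33, SE 0.20, adjusted p = 5.8e-05, edgeR). Without T10 replicate 1 the list still had 38 members higher and 2 lower.

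The other parts of translation moved less. Of 16 aminoacyl-tRNA ligases, which load amino acids on tRNA, 8 were higher and 2 lower, with a median of 0.50. The aspartate ligase went from 26.8, 21.2 and 31.4 CPM to 67.5, 67.5 and 76.6 CPM (log2FC 1.41, SE 0.19, adjusted p = 2e-05, edgeR), whereas the isoleucine ligase fell from 159, 124 and 156 CPM to 83.3, 74.4 and 54.7 CPM (log2FC -1.05, SE 0.18, adjusted p = 1.8e-04, edgeR). Among 33 initiation and elongation factors 9 were higher and 6 lower, with a median of 0.16, equal to that of all transcripts. By library size 24 of them were higher and 2 lower. Initiation factor 4E, which binds the cap of the messenger RNA, rose from 196, 205 and 215 CPM to 322, 314 and 334 CPM (log2FC 0.65, SE 0.13, adjusted p = 6.6e-04, edgeR). Its partner, the scaffold protein 4G, fell from 1278, 1233 and 1370 CPM to 716, 644 and 598 CPM (log2FC -0.99, SE 0.15, adjusted p = 8e-05, edgeR). Of 14 mitochondrial ribosomal proteins 5 were higher and 1 lower, with a median of 0.18.

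Of 32 histones and chromatin proteins 15 were higher and 3 lower, with a median of 0.61. Their share of counts was 0.839, 0.861 and 0.906% at T0 and 1.97, 3.17 and 2.96% at T10, with T10 replicate 1 lowest of the T10 libraries. Histone H2A of scaffold 1697 rose from 695, 674 and 802 CPM to 1523, 2199 and 1708 CPM (log2FC 1.32, SE 0.19, adjusted p = 3.2e-05, edgeR). The more abundant histone H2A of scaffold 387 had 2652, 2778 and 3131 CPM and then 2914, 4820 and 3877 CPM, so that its groups overlapped (log2FC 0.44, adjusted p = 0.07, edgeR), and it was called only without T10 replicate 1 (log2FC 0.61) or on scales that follow library size (log2FC 1.09). Histone H3 (scaffold 1084) rose from 15.3, 26.5 and 20 CPM to 65.1, 59.1 and 87.1 CPM (log2FC 1.77, SE 0.24, adjusted p = 2.1e-05, edgeR). Most histone messages of animals lack a poly(A) tail, so these libraries may hold only part of them, and their close copies can share reads.

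Transcripts for DNA replication were split, also within a single enzyme. Of 32 members 14 were higher and 9 lower, with a median of 0.25, which became 20 and 3 by library size. Replication protein A, which coats single-stranded DNA, rose from 116, 118 and 127 CPM to 356, 443 and 378 CPM (log2FC 1.71, SE 0.16, adjusted p = 8.8e-07, edgeR). The large subunit of ribonucleotide reductase, the enzyme that makes deoxynucleotides, rose from 182, 165 and 197 CPM to 391, 732 and 642 CPM (log2FC 1.70, SE 0.21, adjusted p = 1.3e-05, edgeR). Its small subunit fell from 355, 368 and 366 CPM to 160, 84.8 and 120 CPM (log2FC -1.58, SE 0.20, adjusted p = 1.4e-05, edgeR). At T0 the small subunit was the more abundant of the 2 in each library, and at T10 the large one. A cyclin domain protein (scaffold 581), of the family that activates cell cycle kinases, fell from 893, 803 and 986 CPM to 283, 199 and 163 CPM (log2FC -2.06, SE 0.21, adjusted p = 2.1e-06, edgeR).

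Pre-mRNA splicing factors were higher in 15 of 35 and lower in 4, with a median of 0.35. A serine/arginine-rich factor (scaffold 22), which selects splice sites, rose from 485, 484 and 563 CPM to 1175, 1300 and 1340 CPM (log2FC 1.32, SE 0.15, adjusted p = 6.7e-06, edgeR). Heterogeneous nuclear ribonucleoprotein A2 (scaffold 494), an RNA-binding protein, rose from 247, 242 and 189 CPM to 607, 544 and 603 CPM (log2FC 1.37, SE 0.18, adjusted p = 1.6e-05, edgeR). Both had groups far apart. Of 12 subunits of the 20S proteasome, the core that degrades proteins, 6 were higher and none lower, with a median of 0.47 and log2FC no greater than 0.85. The 26S regulatory particle, its cap, had 5 of 15 higher and 1 lower with a median of 0.10, below that of all transcripts. For the cap this became 13 and 1 by library size. Ubiquitin conjugation, which marks proteins for this core, had 3 of 25 higher and 13 lower with a median of -0.39, but 8 higher and 6 lower by library size. Polyubiquitin-C fell from 1556, 1522 and 1808 CPM to 732, 754 and 695 CPM (log2FC -1.16, SE 0.16, adjusted p = 3.2e-05, edgeR).

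**Figure D5:**
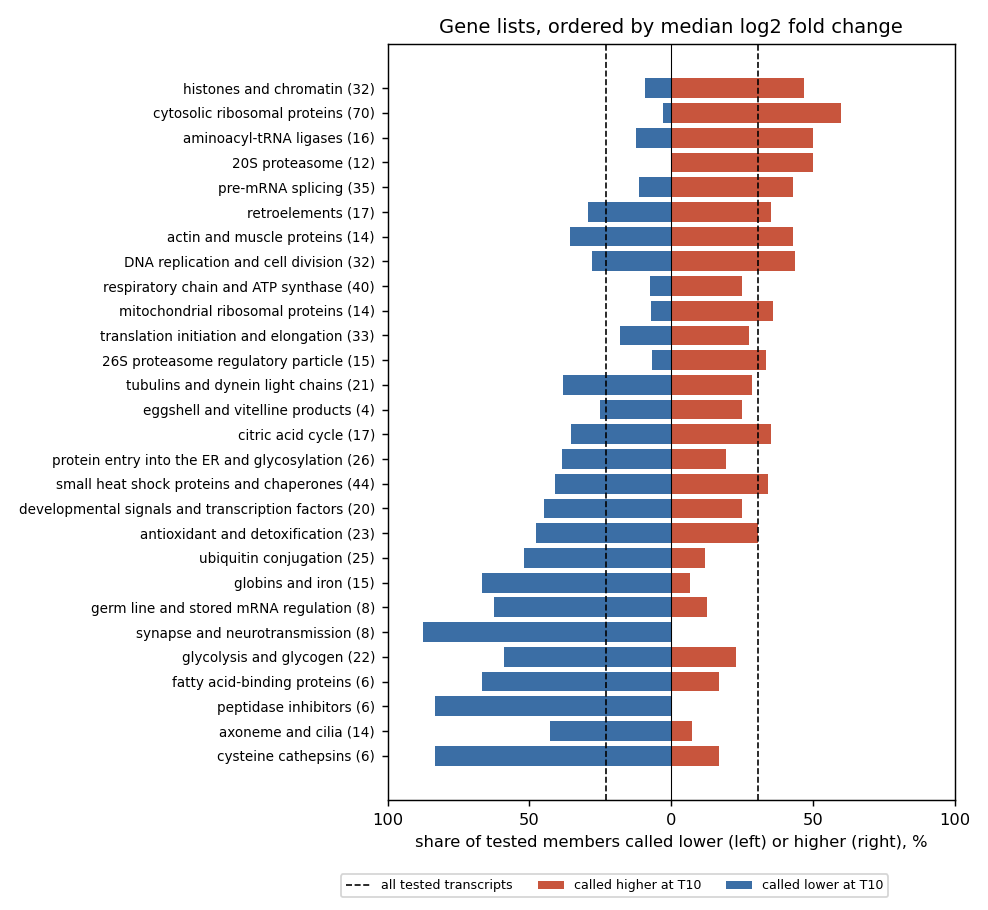
Share of the tested members of each list called lower (blue, to the left) and higher (red, to the right) at T10, in % of the members tested (number in brackets), ordered by median log2 fold change, with dashed lines at the shares over all tested transcripts, 23.1 and 30.5%. Histones, cytosolic ribosomal proteins, tRNA ligases, the 20S proteasome and splicing factors lie at the top and synapse, glycolysis, fatty acid-binding proteins, peptidase inhibitors, axoneme and cathepsins at the bottom, while the balance of the lists on chaperones, ubiquitin, tubulins, the ER and the germ line turned or became even by library size, as did those of antioxidants and developmental signals. That of the respiratory chain turned with RLE factors, those of actin and retroelements became even with them, and the citric acid cycle, even here, had more higher by library size.

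The enzymes of stored sugar were among the groups that fell most. Of 22 transcripts of glycolysis and glycogen, 13 were lower and 5 higher, with a median of -1.20, and by library size 12 were still lower. Their share of counts went from 2.16, 2.17 and 2.28% to 1.41, 1.32 and 1.28%. Glycogenin, the protein primer of glycogen, fell from 8996, 9497 and 10469 CPM to 4743, 2840 and 2590 CPM (log2FC -1.51, SE 0.23, adjusted p = 7.6e-05, edgeR). Glycogen phosphorylase (alpha-1,4 glucan phosphorylase, scaffold 520), which releases glucose from glycogen, fell from 6363, 6728 and 6968 CPM to 2950, 1820 and 1860 CPM (log2FC -1.60, SE 0.21, adjusted p = 2.2e-05, edgeR). Transcripts for both making and breaking down glycogen were thus lower. Pyruvate kinase, the last step of glycolysis, fell from 894, 926 and 820 CPM to 293, 166 and 169 CPM (log2FC -2.07, SE 0.21, adjusted p = 2.4e-06, edgeR). The bifunctional enzyme that sets fructose 2,6-bisphosphate fell from 142, 133 and 152 CPM to 57.8, 21.9 and 26.7 CPM (log2FC -2.01, SE 0.27, adjusted p = 2.3e-05, edgeR). T10 replicate 1 was the highest T10 library in all of these.

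Oxidative metabolism did not move as one. Of 17 citric acid cycle transcripts 6 were higher and 6 lower, with a median of -0.16, which became 10 and 2 by library size, and their share of counts overlapped between the groups. Citrate synthase, the entry of the cycle, fell from 2363, 2450 and 3002 CPM to 1147, 1021 and 768 CPM (log2FC -1.41, SE 0.20, adjusted p = 3.5e-05, edgeR). A subunit of succinate-CoA ligase rose from 52.4, 62.1 and 68.9 CPM to 140, 150 and 160 CPM (2.45-fold, adjusted p = 1.2e-05, edgeR). In the respiratory chain and ATP synthase 10 of 40 were higher and 3 lower, with a median of 0.23. With RLE factors 4 were higher and 6 lower, and by library size 33 were higher and none lower. So no direction is given for this list. Its share of counts was 0.569, 0.569 and 0.574% at T0 and 0.826, 1.04 and 1.01% at T10.

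Fatty acid-binding proteins, which carry lipids through the cytoplasm, had 4 of 6 tested members lower and 1 higher, with a median of -1.31. Type 3 (scaffold 2403) fell from 2613, 2674 and 2844 CPM to 1241, 962 and 625 CPM (log2FC -1.52, SE 0.23, adjusted p = 6.1e-05, edgeR). Type V rose from 34, 37.4 and 35 CPM to 73.8, 70.3 and 66.7 CPM (log2FC 0.99, SE 0.17, adjusted p = 1.8e-04, edgeR), although it stayed far below type 3. Of 15 globin and iron transcripts 10 were lower and 1 higher, with a median of -0.75, which became 5 lower and 2 higher by library size. The 3 ferritins fell by nearly the same factor, with log2FC of -1.93 (scaffold 217), -1.93 (scaffold 145) and -1.92 (scaffold 1125). The member that rose was myoglobin 2, an oxygen-binding protein, from 4.71, 2.76 and 6.06 CPM to 33.7, 23.9 and 12.1 CPM (log2FC 2.36, SE 0.40, adjusted p = 1.5e-04, edgeR), while globin of the same scaffold 908 fell (log2FC -1.47, SE 0.20, adjusted p = 2.8e-05, edgeR).

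Antioxidant and detoxification transcripts had 11 of 23 lower and 7 higher, a balance that was even at 9 and 9 by library size. Glutathione peroxidase (scaffold 908), which reduces peroxides with glutathione, fell from 1882, 1887 and 2197 CPM to 779, 554 and 446 CPM (log2FC -1.75, SE 0.21, adjusted p = 9.2e-06, edgeR). A mu-class glutathione S-transferase (scaffold 2285), a detoxification enzyme, rose from 147, 139 and 163 CPM to 309, 329 and 308 CPM (log2FC 1.08, SE 0.16, adjusted p = 4.4e-05, edgeR). Protein entry into the endoplasmic reticulum and glycosylation had 10 of 26 lower and 5 higher with a median of -0.24, which turned to 5 and 14 by library size. A subunit of the signal peptidase complex (scaffold 520), which trims secreted proteins, fell from 1340, 1315 and 1510 CPM to 690, 646 and 540 CPM (log2FC -1.15, SE 0.17, adjusted p = 4.3e-05, edgeR).

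Of 44 chaperones 15 were higher and 18 lower with a median of -0.30, which turned to 21 higher and 9 lower by library size, and their share of counts fell from 9.17, 9.07 and 9.75% to 6.32, 5.3 and 4.6%. The abundant small heat shock proteins were lower, while a rare one (Hsp20, scaffold 254) rose from 1.03, 1.02 and 0.327 CPM to 21.5, 29.7 and 25.7 CPM. That of scaffold 520 under the name Hsp20/alpha crystallin family protein went from 1640, 1823 and 1705 CPM to 771, 587 and 454 CPM (log2FC -1.51, SE 0.20, adjusted p = 1.9e-05, edgeR). Another of scaffold 520, under the name alpha crystallin-containing small heat shock protein, had a log2FC of -1.50 (SE 0.16, adjusted p = 3.2e-06, edgeR), and the leading one of scaffold 116 one of -1.52. Among other families, mitochondrial GrpE, the exchange factor of the mitochondrial Hsp70, rose from 26, 25.9 and 33.1 CPM to 91.2, 93.5 and 127 CPM (log2FC 1.87, SE 0.19, adjusted p = 1.9e-06, edgeR). An Hsp90 protein (scaffold 201) rose from 23.5, 18.9 and 15.6 CPM to 70.8, 68.7 and 66.2 CPM (log2FC 1.82, SE 0.18, adjusted p = 2e-06, edgeR). Heat shock protein mitochondrial (scaffold 208) moved the other way, from 190, 195 and 166 CPM to 77.5, 76.5 and 64.5 CPM (log2FC -1.34, SE 0.14, adjusted p = 3.3e-06, edgeR).

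Within the cytoskeleton the leading copy of a gene changed. The tubulin beta chain of scaffold 2005 held 1142, 1126 and 1203 CPM at T0 and 544, 430 and 391 CPM at T10 (log2FC -1.35, SE 0.17, adjusted p = 1.2e-05, edgeR). The tubulin beta chain of scaffold 1335 held 195, 195 and 222 CPM at T0 and 1070, 1051 and 976 CPM at T10 (log2FC 2.34, SE 0.16, adjusted p = 2.9e-08, edgeR). So the former was the more abundant in each T0 library and the latter in each T10 library, which also holds before any scaling because both come from the same library. Tubulin alpha chain (scaffold 313) rose from 150, 156 and 148 CPM to 612, 657 and 698 CPM (log2FC 2.12, SE 0.16, adjusted p = 1.1e-07, edgeR). The list of tubulins and dynein light chains as a whole had 6 of 21 higher and 8 lower, which became 10 and 5 by library size. Actin showed a rise in a minor copy, scaffold 520, from 7.06, 5.24 and 6.55 CPM to 221, 325 and 222 CPM (log2FC 5.35, SE 0.25, adjusted p = 4.4e-10, edgeR). Tubulin and actin genes have close copies, so that reads may be divided among models.

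The list of actin and muscle proteins, which is not limited to proteins of muscle, did not share a direction. Of its 14 tested members 6 were higher and 5 lower, which became 5 and 5 with RLE factors. Myophilin, a calponin-like protein of flatworm muscle, rose from 55.2, 66.4 and 75.5 CPM to 669, 745 and 855 CPM (log2FC 3.53, SE 0.17, adjusted p = 5.2e-10, edgeR). Filamin-A, which links actin filaments to the membrane, fell from 682, 655 and 607 CPM to 269, 169 and 159 CPM (log2FC -1.70, SE 0.20, adjusted p = 6.4e-06, edgeR). Talin-1, an adaptor of cell adhesion, fell from 276, 255 and 240 CPM to 131, 93.1 and 97 CPM (log2FC -1.26, SE 0.16, adjusted p = 1.6e-05, edgeR).

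Transcripts of synapse and neurotransmission fell in 7 of 8 tested members, with none higher and a median of -0.97, and 5 were still lower by library size. The leading one, phenylalanine-tryptophan hydroxylase (scaffold 938), which hydroxylates aromatic amino acids, fell from 7534, 7485 and 9266 CPM to 3949, 2566 and 2185 CPM (log2FC -1.48, SE 0.24, adjusted p = 9.4e-05, edgeR). Synaptobrevin (scaffold 632), a membrane fusion protein of secretory vesicles, fell from 950, 994 and 1155 CPM to 653, 498 and 456 CPM (log2FC -0.95, SE 0.18, adjusted p = 3.7e-04, edgeR). These products also work outside neurons, in amino acid breakdown and general secretion. Of the 17 models in the list, 8 had no count at T0.

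The parts of the cilium were at low levels at both times. Only 14 of 31 axoneme and cilia models passed the filter, 6 of them lower and 1 higher, with a median of -1.70. Tektin-2 (scaffold 199), a filament protein of the axoneme, went from 6.18, 5.82 and 8.19 CPM to 0, 0 and 0.464 CPM (log2FC -5.20, SE 1.24). It passed the filter only through the T0 libraries, so its direction is fixed by it and no p-value is given. Stabilizer of axonemal microtubules 2 went from 21.9, 24.9 and 25.7 CPM to 14.1, 5.49 and 3.1 CPM (log2FC -1.69, SE 0.43, adjusted p = 0.0036, edgeR). The member that rose was WD repeat-containing protein 16, which in other animals is found in motile cilia, from 78.4, 78.1 and 85.9 CPM to 162, 198 and 203 CPM (log2FC 1.22, SE 0.14, adjusted p = 7.2e-06, edgeR). With it the summed share of the list was 0.0139 to 0.015% of counts at T0 and 0.0235 to 0.0321% at T10, whereas the other called members were lower.

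Developmental regulators were lower in 9 of 20 and higher in 5, with a median of -0.33, and were even at 6 and 6 by library size. Nuclear receptor 2DBD gamma, a flatworm receptor with a doubled DNA-binding domain, fell from 285, 268 and 269 CPM to 90.2, 57.3 and 61.9 CPM (log2FC -1.97, SE 0.18, adjusted p = 7e-07, edgeR). Zinc finger homeobox protein 1, a transcription factor, fell from 1223, 1197 and 1176 CPM to 531, 400 and 269 CPM (log2FC -1.58, SE 0.22, adjusted p = 3e-05, edgeR). A seven-pass cadherin of the CELSR kind, which in other animals orients cells in a sheet, fell from 210, 184 and 183 CPM to 52.1, 43.1 and 53.8 CPM (log2FC -1.95, SE 0.19, adjusted p = 1.3e-06, edgeR). These 3 falls were also called by library size, where the median was still 0.49 below that of all transcripts.

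Regulators of germ line and stored messenger RNA had 5 of 8 lower and 1 higher with a median of -0.83, which became 3 and 3 by library size. The RNA-binding protein ELAV 2/3/4 fell from 2560, 2674 and 3198 CPM to 1107, 868 and 753 CPM (log2FC -1.63, SE 0.20, adjusted p = 8.8e-06, edgeR). Protein zyg-11, which in *Caenorhabditis elegans* acts in meiosis and early polarity, fell from 875, 993 and 837 CPM to 373, 251 and 289 CPM (log2FC -1.57, SE 0.17, adjusted p = 4e-06, edgeR). The cold-shock domain protein (scaffold 760), of a family that packages messenger RNA, fell from 5829, 6020 and 6863 CPM to 4766, 3619 and 3397 CPM, from rank 20 to rank 14 (log2FC -0.67, SE 0.19, adjusted p = 0.0078, edgeR), and was not called by library size (log2FC -0.07).

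Some cysteine cathepsins and peptidase inhibitors fell steeply, others little or not. Of 13 cathepsin models 6 were tested, 5 lower and 1 higher, with a median of -2.91. Secreted cathepsin L1 (scaffold 1194), known as a digestive enzyme of the adult gut, went from 185, 133 and 118 CPM to 4.45, 2.06 and 1.47 CPM (log2FC -5.80, SE 0.40, adjusted p = 2.9e-08, edgeR). Secreted cathepsin L2 (scaffold 819), of the same kind, went from 33.8, 33.2 and 28.5 CPM to 2.13, 0.686 and 0.929 CPM (log2FC -4.68, SE 0.47, adjusted p = 2e-06, edgeR). At T5 they were already at 8.84, 4.33 and 3.18 CPM and at 4.82, 3.7 and 1.64 CPM. The most abundant member, cathepsin L (scaffold 1184), fell far less, from 1975, 2004 and 2190 CPM to 1250, 806 and 747 CPM (log2FC -1.14, SE 0.20, adjusted p = 1.9e-04, edgeR). Cathepsin B (scaffold 1137) was higher, with 232, 219 and 261 CPM and then 273, 353 and 315 CPM (log2FC 0.40, SE 0.15, adjusted p = 0.031, edgeR), but not with RLE factors (log2FC 0.30). The cysteine protease of scaffold 520 fell slightly (log2FC -0.43, adjusted p = 0.044, edgeR) and turned to 0.20 by library size, and it was not called without T10 replicate 1 (adjusted p = 0.077).

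Of 12 models of peptidase inhibitors 6 were tested, and 5 were lower and none higher, with a median of -1.41. Antistasin family protein (scaffold 494), of a family of serine protease inhibitors first known from leeches, fell from 3220, 3274 and 3354 CPM to 1726, 963 and 796 CPM (log2FC -1.50, SE 0.25, adjusted p = 1.4e-04, edgeR). A Kunitz domain protein (scaffold 281), of another such family, fell from 164, 165 and 166 CPM to 63.9, 46.5 and 48.5 CPM (log2FC -1.64, SE 0.17, adjusted p = 3e-06, edgeR). Serpin of scaffold 293 went from 486, 491 and 501 CPM to 3.44, 3.82 and 0.619 CPM (log2FC -7.60, SE 0.38, adjusted p = 8.6e-10, edgeR). Stefin-1, an inhibitor of cysteine cathepsins, fell from 519, 538 and 623 CPM to 419, 387 and 365 CPM (log2FC -0.52, SE 0.14, adjusted p = 0.0056, edgeR) and turned to 0.10 by library size.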

How the data were processed

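RNA of 9 portions of eggs was measured, 3 each at T0, T5 and T10, in 3′ tag libraries (QuantSeq 3′ FWD). The authors trimmed the reads with Trimmomatic 0.38 and assigned them to gene models of the reference genome by Bowtie2 and RSEM 1.3.3. The expected counts deposited by the authors are RSEM's estimates of reads per model, not normalized. The TPM values deposited by the authors divide these counts by effective length and scale them to a fixed sum. Deposited FPKM values were not used. Of 16806 models, 7098 are tRNA genes and were left out.

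Expected counts were rounded, filtered (filterByExpr) and TMM-scaled in edgeR 4.0.16 under R 4.3.3. A single quasi-likelihood model over all 9 libraries gave the F-test of T10 against T0, with p-values adjusted by Benjamini and Hochberg over 6319 transcripts (biological coefficient of variation 0.244, prior degrees of freedom 9.68). The SE of a log2FC is its size over the square root of F. Tested on simulated data of 6164 genes for T10 against T0, the fit found 66% of 2-fold and 91% of 4-fold changes with 7 false calls. In that simulation only 200 genes changed, as many up as down, and all others had equal means. It held no joint fall of the leading transcripts and no library set apart, so it gives no error rate for the real comparison. Shares of counts used unscaled counts of coding models, compared by exact permutation over libraries. No set test was run.

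Names came from the parts of the study's annotation sheets used here and cover 2406 coding models, 2042 by a *Fasciola* entry and 364 by one of another species. Named transcripts are, among those with an informative name, the 15 highest at T0 and at T10, the 15 largest rises and falls (adjusted p under 0.05, at least 10 CPM, no overlap), the 10 largest gains and losses in CPM, up to 5 per list by adjusted p, and all tested eggshell products, small heat shock proteins, cathepsins and peptidase inhibitors. Models without a name, and the comparison between members of a family, were picked after their values were seen. The members, the 28 lists and these rules were chosen with earlier results of these data known. Alternatives were RLE, upper-quartile and library-size scaling, DESeq2 1.42.0, limma 3.58.1 on log2(TPM + 1) and log2(TPM + 0.1), other filters, only 6 libraries, a block for the replicate number, leave-one-out of each library, TPM in place of counts, tRNA models included and libraries thinned to one depth. Python 3.11.15 with pandas 2.3.3, numpy 2.4.6, scipy 1.17.1 and matplotlib 3.10.9 did the rest.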

Additional observations from a re-analysis of the deposited data

Results flagged for a closer look

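Some counts lay outside the models compared, on the 7098 tRNA models, which a library of polyadenylated transcripts is not made to read. Their expected counts summed to 147, 149 and 132 in the T0 libraries and to 63, 16 and 40 in the T10 libraries. The T0 and T10 sums do not overlap. Each is a sum over all 7098 models, so the floor of 3 counts for a single transcript cannot tell it from stray reads. They were left out of the calls, and with them in the library total the shares of counts changed by the same amounts as printed. The difference between T0 and T10 was not tested.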

How the results depend on the processing

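The number of transcripts called was within 1.5 times the reported one under RLE and upper-quartile factors, DESeq2, both filters and 6 libraries, and moved further by library size and with limma on TPM, which changes unit, scale and test at once. By library size only, 3363 were higher and 713 lower, and under the stricter rule 2227 and 270. With limma on log2(TPM + 1) the counts were 3084 and 841 (stricter rule 1795 and 312), and with log2(TPM + 0.1) 3062 and 818 (2010 and 351). By the adjusted p alone the stricter counts become 1928 and 1461. With the summed TPM of the leading 50 in place of CPM, the ratio of T10 to T0 was 0.640 for those of T0 and 0.811 for those of T10. TPM carry no TMM factor, so the gap to the CPM ratios is not that of length alone. Of the named genes 2 turned: the cysteine protease of scaffold 520 to 0.20 by library size and 0.13 with limma at either pseudocount, and Stefin-1 to 0.10 and 0.04.

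Leaving out 1 library at a time gave 1541 to 2003 higher and 1318 to 1612 lower transcripts (stricter rule 808 to 951 and 678 to 993), 9 to 12 lists with more members higher than lower, and the following changes from T0 to T10. The share of the leading transcript changed by -4.53 to -3.62 percentage points, of the leading 10 by -12.8 to -9.21, of the leading 50 by -18.2 to -14, of the leading 100 by -19.2 to -14.6 and of the leading 500 by -15.2 to -11.1. The number of transcripts that hold 50% of counts rose by 129 to 192, that for 90% by 702 to 869, and the effective number by 554 to 810. The ratio for the leading 50 was 0.323 to 0.45 for those of T0 and 0.403 to 0.525 for those of T10.

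Same-numbered replicates did not deviate together (correlations of -0.027, -0.036 and -0.015), so no pairing by number was seen. A weak pairing could be missed this way, and the labels state none. With the replicate block, 1861 were higher and 1463 lower (stricter rule 897 and 807), and none of the 182 named genes changed its call. Depth limits the low end: with 3 counts worth up to 0.374 CPM, a transcript at 0 may have been present below that level.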

Other observations

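Some further members of the lists, picked here after their values were seen, moved strongly at low levels. Transcription factor glial cells missing, which in *Drosophila* directs glial fate, had no count at T0 and a mean of 6.94 CPM at T10. A homeobox domain protein (scaffold 1829), of the family of patterning transcription factors, went from 0.418 to 5.86 CPM (log2FC 3.79). Both are at levels where few counts decide. They could pass the filter only through libraries where they were higher, so their direction is fixed by it and no p-value is given.

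Enzyme copies also parted. Fructose-bisphosphate aldolase, which splits a sugar in glycolysis, fell at scaffold 1549 from a mean of 3639 CPM (log2FC -1.74). At scaffold 445 it fell from 17 to 3.41 CPM (log2FC -2.33, adjusted p = 3.5e-04, edgeR). The copy of scaffold 105 went from 1.13 to 6.47 CPM (log2FC 2.50). That copy was too low at T0 to pass the filter there, so no p-value is given for it. L-lactate dehydrogenase, which regenerates the cofactor of glycolysis, fell in its more abundant model of scaffold 158 from 1159 to 477 CPM (log2FC -1.28, adjusted p = 3.3e-04, edgeR). Of the chaperonins, of which only these are described, GroS, the lid of the mitochondrial folding chamber, rose from 305 to 730 CPM (log2FC 1.26, adjusted p = 1.8e-05, edgeR), and subunit gamma of T-complex protein 1, a part of the cytosolic chamber, rose from 34.2 to 107 CPM (log2FC 1.65, adjusted p = 4.4e-06, edgeR). The replication helicase subunit MCM7 rose from 326 to 795 CPM (log2FC 1.29, adjusted p = 5.9e-05, edgeR), whereas the kinase PLK, which acts in mitosis, fell from 1257 to 584 CPM (log2FC -1.11, adjusted p = 3.1e-04, edgeR).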
